A study of Mus musculus with 3 samples.

Results

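The neuregulins (Nrg1, Nrg2, Nrg3 and Nrg4) and the ErbB receptors (Egfr, Erbb2, Erbb3 and Erbb4) are a set of 8 genes, taken by name from a table of 32285 genes and all found in it. Single-nucleus RNA sequencing was run on mothers (female), virgin males and virgin females, after the lateral habenula (LHb) was cut out of brain slices. All 3 groups shared a sort for KASH-GFP, which tethers GFP to the envelope of the nucleus, and the label of the sorted neurons also names the bed nucleus of the stria terminalis, which lies in the limbic forebrain. Each group pooled 3 mice into 1 library, and the sources used here give neither strain, age nor how the fluorescent label was delivered. The libraries gave 201, 204 and 187 nuclei annotated as neurons, in the deposited clusters 0 to 4.

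Neuregulins are ligands with an EGF-like domain, mostly made as membrane proteins and freed by proteases. They bind Erbb4, and some of them Erbb3, which pair with each other or with Erbb2, a receptor with no known ligand of its own, while Egfr answers mainly to other EGF family ligands. In cortex and hippocampus, Erbb4 is known as a receptor of GABAergic interneurons, and the neuregulins of excitatory neurons act on it at synapses. Most LHb neurons are glutamatergic.

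A total of 7532914 UMIs (unique molecular identifiers, the tags that mark captured transcripts) came from the 592 neuronal nuclei, with a median of 11898 per nucleus in mothers, 9414 in virgin males and 13181 in virgin females. No nucleus barcode was shared between libraries. Levels are CPM, a gene's UMIs per 1000000 UMIs of the same nuclei, with exact 95% Poisson intervals in square brackets. These intervals and those of folds cover counting error only, and with 1 library per group no difference between groups could be tested. The marker check went partly against the tissue label. For clusters 0 to 4 in that order, 6 LHb markers summed to 899, 1893, 1116, 1173 and 1760 CPM, and 6 thalamic markers to 7089, 2053, 8266, 10641 and 1454 CPM. Pou4f1, a defining habenular factor, was at 0 in clusters 0, 2 and 3, and Gpr151 was at 0 in cluster 3. Clusters are therefore called by number.

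On GRCm38, the ligand genes lie on chromosome 8 (Nrg1, 31814551 to 32884029), chromosome 18 (Nrg2, 36017652 to 36197380), chromosome 14 (Nrg3, 38368952 to 39473088) and chromosome 9 (Nrg4, 55220222 to 55326844), all on the minus strand. Erbb4 lies on the minus strand of chromosome 1 (68032186 to 69108059) and Erbb3 on that of chromosome 10 (128567523 to 128589652). Egfr and Erbb2 lie on the plus strand of chromosome 11, at 16752203 to 16918158 and 98412470 to 98437716. Nrg1, Nrg3 and Erbb4 are very long genes, each spanning over 1000 kb from first to last annotated base. An antisense gene, Nrg3os (chromosome 14, 38898302 to 38958794, plus strand), lies inside Nrg3.

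Of the ligands, Nrg3 gave by far the most UMIs in neurons and Nrg4 the fewest; of the receptors, only Erbb4 was seen at more than trace level. Nrg3 had 37316 UMIs or 4954 CPM [4904, 5004], Nrg1 had 7497 UMIs or 995 CPM [973, 1018], Nrg2 had 1190 UMIs or 158 CPM [149, 167] and Nrg4 had 88 UMIs or 11.7 CPM [9.37, 14.4]. Erbb4 had 2794 UMIs or 371 CPM [357, 385], Egfr 16 UMIs, Erbb3 5 UMIs and Erbb2 none, which allows up to 0.398 CPM. Because nuclear RNA holds unspliced transcripts, levels of different genes are set side by side only per length. Gene span is a fair length only if introns were counted, which the sources used here do not say. If they were not, the order per length may differ. Per 100 kb of gene span, the level was 449 CPM for Nrg3, 93.1 for Nrg1, 87.9 for Nrg2, 34.5 for Erbb4, 11.0 for Nrg4, 3.00 for Erbb3 and 1.28 for Egfr. On this scale Nrg1 and Nrg2 stood close to each other, below Nrg3 and above Erbb4. The 5 members with at least 50 neuronal UMIs (Nrg1, Nrg2, Nrg3, Nrg4 and Erbb4) enter the counts below, and the other 3 are given as UMIs.

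**Figure D1:**
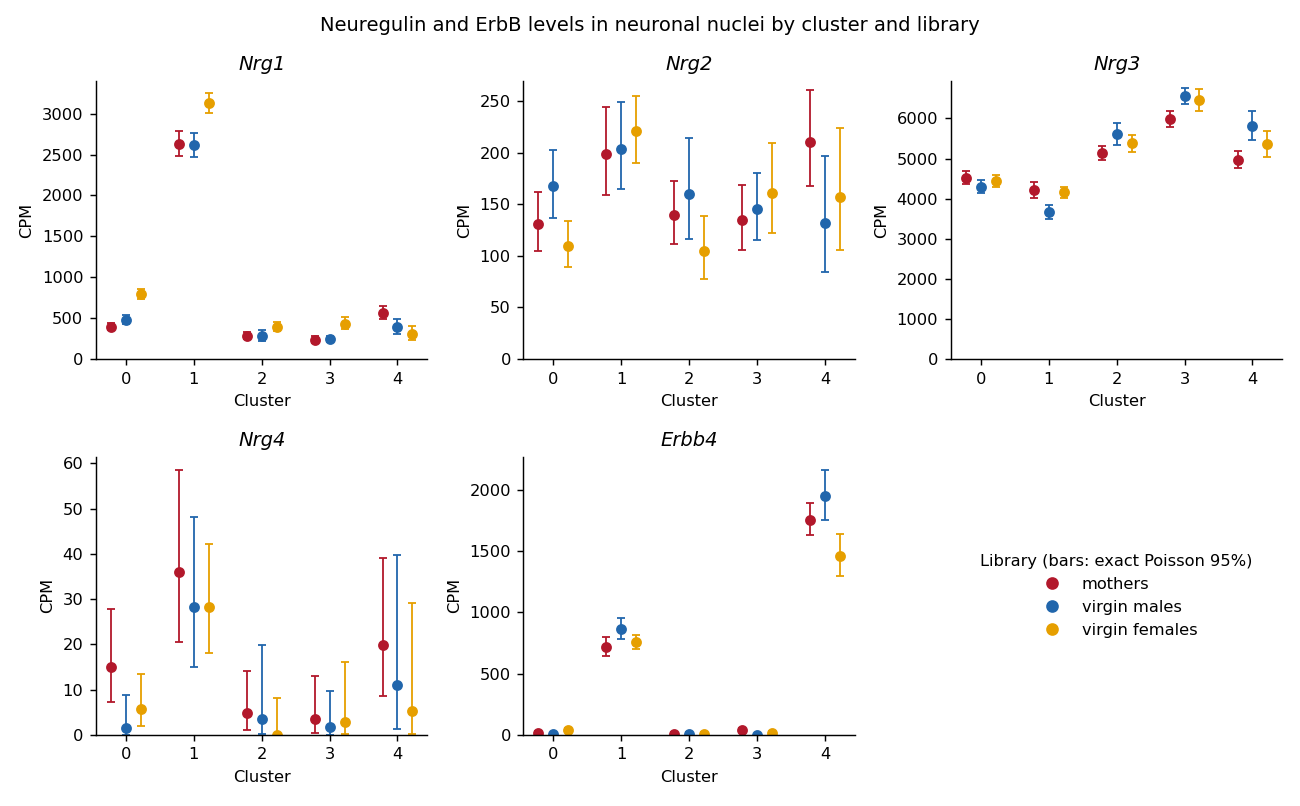
Level (CPM) of the 5 members with at least 50 neuronal UMIs in each cluster, with a point per library (mothers left, virgin males middle, virgin females right) and exact 95% Poisson bars. In all 3 libraries Nrg1 is highest in cluster 1, Nrg3 in cluster 3 and Erbb4 in cluster 4, with cluster 1 next for Erbb4.

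Nrg1, the best studied neuregulin, was concentrated in cluster 1. Its level there was 2633 CPM [2484, 2789] in mothers, 2615 CPM [2469, 2767] in virgin males and 3124 CPM [3006, 3246] in virgin females, a mean of 2791 ± 289 CPM (SD, n = 3 libraries, each of another group). Cluster 0 followed with a mean of 555 ± 208 CPM over the same libraries, then cluster 4 with 422 ± 132, cluster 2 with 319.5 ± 67.2 and cluster 3 with 305 ± 112. No library outside cluster 1 came near the lowest value inside it, whereas the ranges of clusters 0, 4, 2 and 3 overlapped from each to the next. Cluster 1 held 67.0% of all neuronal Nrg1 UMIs but 23.3% of all neuronal UMIs, and its level was 6.70 [6.39, 7.04] times that of the other clusters together. Cluster 1 stood 10.0 [9.07, 11.1] times above cluster 3, the lowest.

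Nrg4, a ligand with a strong preference for Erbb4, had the same leading cluster at a much lower level. Cluster 1 gave 16 UMIs or 36.0 CPM [20.6, 58.5] in mothers, 13 UMIs or 28.2 CPM [15.0, 48.2] in virgin males and 24 UMIs or 28.3 CPM [18.1, 42.1] in virgin females. The other clusters together gave 35 UMIs, and the ratio of cluster 1 to them was 4.99 [3.20, 7.88]. Cluster 4 followed with 14.2 CPM [7.07, 25.3] from 11 UMIs, and clusters 2 and 3 had 4 UMIs each.

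Nrg3, a brain-enriched ligand of Erbb4, was present in every cluster and varied little. Its level was highest in cluster 3, at 5985 CPM in mothers, 6555 in virgin males and 6459 in virgin females, a mean of 6333 ± 305 CPM. It was lowest in cluster 1, at 4214 CPM in mothers, 3672 in virgin males and 4161 in virgin females, a mean of 4016 ± 299 CPM. Clusters 4 and 2 lay between (means 5379.8 ± 424 and 5377 ± 236 CPM) and did not differ beyond their spread, and cluster 0 followed at 4414 ± 115 CPM. The pooled ratio of cluster 3 to cluster 1 was 1.56 [1.51, 1.61], or 0.64 on the log2 scale. It became 0.83 with size factors from the median of gene ratios in place of total UMIs, a scaling that moves the level of all genes by 0.10 in cluster 3 and by -0.09 in cluster 1 (log2). The sources used here do not say whether counting kept to the sense strand, so UMIs of Nrg3 and Nrg3os cannot be told apart where they overlap. Nrg3os was counted at 641, 631, 787, 764 and 769 CPM in clusters 0 to 4.

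Nrg2, a ligand of Erbb3 and Erbb4, varied little over the clusters, with cluster 1 at the top of the pooled levels. Pooled levels ran from 132 CPM [113, 153] in cluster 2 to 210.4 CPM [189, 233] in cluster 1, with 133, 145 and 179 CPM for clusters 0, 3 and 4. The highest over the lowest was 1.59 [1.33, 1.91]. Over libraries, cluster 1 (198 to 220 CPM) lay wholly above clusters 0, 2 and 3, but its range overlapped with that of cluster 4. The ranges of clusters 4, 3, 0 and 2 overlapped from each to the next. Mothers had their highest Nrg2 level in cluster 4 (210.4 CPM), while virgin males (204 CPM) and virgin females (220.5 CPM) had it in cluster 1.

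Erbb4, the receptor tyrosine kinase that binds all neuregulins, was split sharply between clusters. Cluster 4 had 1757 CPM [1631, 1892] in mothers, 1950 CPM [1752, 2164] in virgin males and 1461 CPM [1295, 1643] in virgin females, a mean of 1723 ± 246 CPM. Cluster 1 had 719 CPM [642, 802] in mothers, 867 CPM [784, 956] in virgin males and 758 CPM [701, 819] in virgin females, a mean of 781 ± 76.6 CPM. These ranges did not overlap with each other or with those of clusters 0, 2 and 3, where no library exceeded 42.4 CPM. Clusters 1 and 4 held 48.7% and 48.1% of neuronal Erbb4 UMIs. Cluster 4 stood 2.23 [2.06, 2.40] times above cluster 1 and 196 [112, 381] times above cluster 2, the lowest. The few UMIs elsewhere came partly from single nuclei: 15 of 25 Erbb4 UMIs in cluster 3 and 14 of 52 in cluster 0 lay in 1 nucleus each. Without its richest nucleus, cluster 3 of mothers had an Erbb4 level of 9.13 CPM in place of 35.9.

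A member was called higher or lower in a cluster when its CPM was at least 1.5-fold above or below that of the other clusters together in all 3 libraries. The clusters were made from these same nuclei, so the counts describe them and are no test. In cluster 1, 3 of the 5 members (Nrg1, Nrg4 and Erbb4) were called higher, where 7.52% of 11467 genes were. In cluster 4, Erbb4 was called higher, where 4.76% of genes were. The same 3 members that led cluster 1 were called lower in cluster 2 (6.37% of genes) and cluster 3 (10.4% of genes), and Nrg1 and Erbb4 were called lower in cluster 0 (6.55% of genes). Each cluster is set against the others together, so a high level in 1 cluster favours lower calls elsewhere. The calls of a member are therefore not separate results. Nrg1 was called lower in cluster 0 although it stood there above clusters 2 and 3 in all 3 libraries (pooled ratios 1.81 [1.62, 2.02] and 2.03 [1.81, 2.27]). Nrg2 and Nrg3 were called in no cluster. The highest cluster was the same in all 3 libraries for 4 of the 5 members (all but Nrg2), against 21.5% of genes.

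The other receptors were nearly absent from neurons. Egfr, the receptor of EGF itself, gave 6 UMIs in mothers, 6 in virgin males and 4 in virgin females, in 14 nuclei spread over all clusters. Erbb3, a receptor with little kinase activity, gave 2, 3 and 0 UMIs. Erbb2 gave no UMI in any of the 603 nuclei, neuronal or not.

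Several marker lists set clusters 1 and 4 apart from the others, as Erbb4 did, whereas Nrg1 was high in cluster 1 only. Pooled over libraries, clusters 1 and 4 had the lowest summed thalamic level and the highest summed LHb level, as given above. The LHb list set them apart less cleanly, since its range over libraries was 1473 to 2584 CPM in cluster 1 and 825 to 1487 CPM in cluster 3. Markers of the medial habenula, the neighbouring nucleus, summed to 452 CPM in cluster 1 (412 to 552 over libraries) and 140 CPM in cluster 4 (131 to 149), against 89.7, 72.6 and 16.3 CPM in clusters 0, 2 and 3. Of these 8 markers, 7 had a UMI in cluster 1 and 5 in cluster 4, and Slc18a3 was at 0 in both. GABAergic markers (Gad1, Gad2 and Slc32a1, a list shortened after its values were seen) summed to 59.2 CPM in cluster 4 (37.1 to 105 over libraries) and 57.0 CPM in cluster 1 (43.3 to 78.8), but only to 5.08, 0 and 0 CPM for clusters 0, 2 and 3. In cluster 4, Slc32a1, the vesicular GABA transporter, and Gad1, an enzyme of GABA synthesis, were at 0, and Gad2, the other such enzyme, gave the whole sum. Glutamatergic markers (Slc17a6 and Slc17a7) were present in every cluster. They summed to 432, 293, 473, 373 and 252 CPM in clusters 0 to 4, with Slc17a7 at 0 in cluster 4. The part of these markers in the Erbb4 and Nrg1 pattern was not tested beyond the values that follow. Erbb4 in cluster 4 was 2682 CPM [2484, 2891] in the 23 nuclei with a UMI of these markers and 1270 CPM [1175, 1370] in the 52 without, and the order was the same in all 3 libraries. In cluster 1 the order was the other way, at 450 CPM [357, 559] in 17 nuclei with one and 814 CPM [770, 860] in 140 without. Mothers were the exception there, with 863 CPM [643, 1135] in 7 nuclei with a marker UMI and 696 CPM [615, 785] in 32 without. Virgin males had only 2 nuclei with a marker UMI in cluster 1, with 0 Erbb4 UMIs. The order thus rested mainly on virgin females, with 403 CPM in 8 nuclei with one and 792 CPM in 57 without. The size of the difference in cluster 4 and its direction in cluster 1 depend on which markers are in the list. Nrg1 went the other way from Erbb4 in both clusters, at 297 CPM [233, 372] with a marker UMI and 542 CPM [481, 609] without in cluster 4, and at 3420 CPM [3156, 3701] with one and 2802 CPM [2720, 2886] without in cluster 1. Virgin males were the exception in cluster 4, with 443 CPM in 5 nuclei with a marker UMI and 379 CPM in 18 without. Mothers were the exception in cluster 1, with 1185 CPM in 7 nuclei with one and 2855.5 CPM in 32 without. The Nrg1 order of virgin males there rested on 2 nuclei with a marker UMI (4780 CPM, against 2371 CPM in 51 without). In cluster 1 of virgin males, ependymal or choroid markers (chiefly Ttr) summed to 1599 CPM. Leaving out the 5 neuronal nuclei dominated by markers of non-neuronal cells gave 12 calls again.

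**Figure D2:**
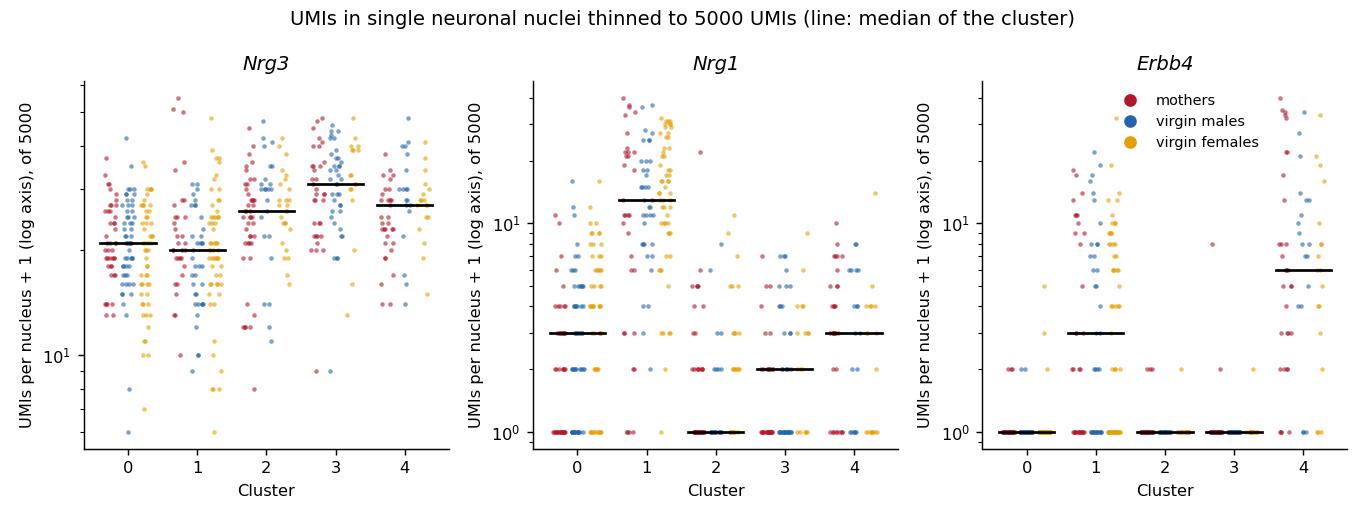
UMIs per neuronal nucleus, plus 1 and on a log axis, for Nrg3, Nrg1 and Erbb4 in 533 nuclei thinned to 5000 UMIs each, with a point per nucleus coloured by library and a line at each cluster's median. Every nucleus has Nrg3, while Erbb4 is at 0 in most nuclei of clusters 0, 2 and 3 and spread widely in clusters 1 and 4.

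Single nuclei were compared at equal depth by thinning each to 5000 UMIs, which left out 14 shallower nuclei of mothers, 30 of virgin males and 15 of virgin females. Of those left out, 6, 16 and 8 in the same order of groups were nuclei of cluster 1. Nrg3 had at least 1 UMI in 100% of the 533 nuclei kept. Nrg1 was found in 96.1% [91.1, 98.7] of cluster 1 nuclei (exact Clopper-Pearson interval), and in 71.4%, 44.7%, 51.7% and 68.1% of those of clusters 0, 2, 3 and 4. With no nucleus left out and at full depth, Nrg3 was found in 150 and Nrg1 in 145 of the 157 nuclei of cluster 1. After thinning, the median nucleus of cluster 1 kept 12 Nrg1 UMIs, against 2 in clusters 0 and 4. Nrg1 was thus detected in every cluster, and clusters differed both in its presence and in its amount. At full depth, 5 nuclei held 41.5% of the Nrg1 UMIs of cluster 2. In virgin males, 1 nucleus held 41 of the 79 Nrg1 UMIs of that cluster.

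Erbb4 differed in presence as well. It was found in 85.5% [74.96, 92.8] of cluster 4 nuclei and 60.6% [51.6, 69.2] of cluster 1 nuclei, but in 5.19%, 4.26% and 3.37% of those of clusters 0, 2 and 3. In cluster 4 the share was 87.5% in mothers, 84.2% in virgin males and 83.3% in virgin females, and in cluster 1 it was 57.6%, 62.2% and 61.4% in the same order of groups. At full depth, the middle 50% of cluster 1 nuclei ran from 0 to 14 Erbb4 UMIs around a median of 2, with a highest value of 73. In cluster 4 they ran from 3 to 22 around a median of 8, with a highest value of 153 in a nucleus that held 11.4% of the cluster's Erbb4 UMIs. Erbb4 was thus unevenly spread within both clusters that held most of it.

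Ligand and receptor were often counted in the same nucleus. Of the thinned nuclei, 58.3% in cluster 1 and 55.1% in cluster 4 had both Nrg1 and Erbb4, against 4.55%, 2.13% and 1.12% for clusters 0, 2 and 3. Within cluster 1, Nrg1 was as frequent in nuclei with Erbb4 (96.1%) as in those without (96.0%). Within cluster 4, it was found in 64.4% [50.9, 76.4] of nuclei with Erbb4 and in 90% [55.5, 99.7] of the 10 nuclei without. Nrg2 was found in 62.3% [50.6, 73.1] of cluster 1 nuclei with Erbb4 and 42.0% [28.2, 56.8] of those without. These pairs of intervals overlap.

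**Figure D3:**
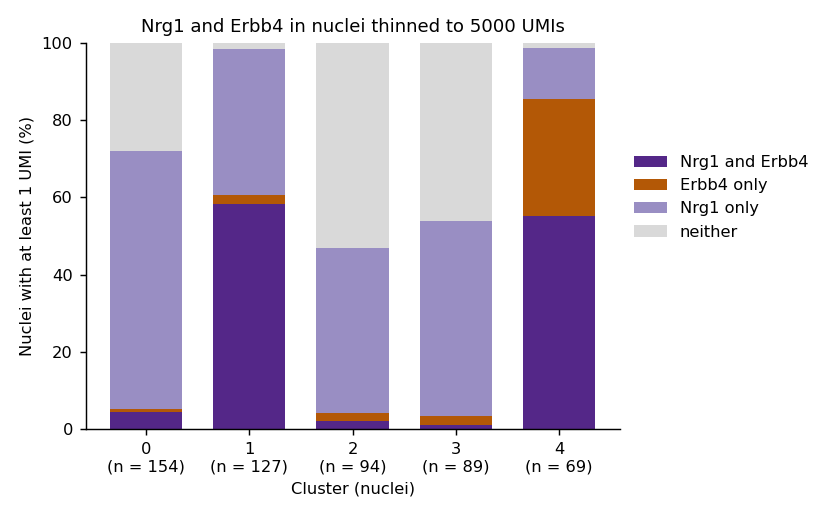
Share of thinned nuclei per cluster (n under each bar) with at least 1 UMI of both Nrg1 and Erbb4, of Erbb4 only, of Nrg1 only or of neither. Nuclei with both make up 58.3% of cluster 1 and 55.1% of cluster 4, and at most 4.55% of any other cluster.

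The authors' subtype labels divided cluster 1 further. Under the scheme with labels LHb1 to LHb4, cluster 1 held 86 LHb2 and 71 LHb4 nuclei. Erbb4 was 862 CPM [807, 919.5] in the LHb2 nuclei and 641 CPM [583, 705] in the LHb4 nuclei, and Nrg1 was 2989 CPM [2886, 3094] and 2672 CPM [2550.4, 2798]. The Erbb4 order held in mothers (775 and 625 CPM), virgin males (994 and 721 CPM) and virgin females (847 and 594 CPM). The Nrg1 order did not, since virgin females had 2927 CPM in LHb2 and 3488 CPM in LHb4 nuclei. Under the other scheme, 21 nuclei of cluster 1 labelled lhb_4 had 1512 CPM [1308, 1739] of Erbb4. The 134 labelled lhb_1 had 713 CPM [673, 756], and the order was the same in each library. The lhb_4 level of Erbb4 was near that of cluster 4 in mothers (1738 against 1757 CPM). In virgin females it was above cluster 4 (1672 against 1461 CPM), from 4 lhb_4 nuclei. In virgin males it was nearer to the lhb_1 level (831 CPM) than to that of cluster 4 (1950 CPM). Nrg1 pooled to 2137 CPM [1892, 2404] in the lhb_4 nuclei, against 2948 CPM [2864, 3033] in the lhb_1 nuclei, but the libraries did not share this order. It was 2514 against 2725 CPM in mothers, 166 against 2834 CPM in virgin males, whose lhb_4 value rests on 9 nuclei, and 3419 against 3110 CPM in virgin females. The lhb_4 nuclei had no Nrg4 UMI, with an interval up to 28.5 CPM. That overlaps with the interval of the lhb_1 nuclei, which had 33.1 CPM [24.8, 43.3].

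Between libraries, Nrg1 was lower in mothers and virgin males than in virgin females over all neuronal nuclei, and Nrg3 and Erbb4 were nearly level. Over all neuronal nuclei, Nrg1 was 732 CPM [699.6, 765] in mothers, 846 CPM [807, 886] in virgin males and 1373 CPM [1330, 1418] in virgin females. The fold of mothers over virgin females was 0.533 [0.504, 0.563], that of virgin males over virgin females 0.616 [0.582, 0.652] and that of mothers over virgin males 0.865 [0.811, 0.923]. Nrg1 was the only one of 5 members counted past a 1.5-fold difference for mothers over virgin females, where 3.66% of genes were lower by that much. It was the only one of 4 for virgin males over virgin females, where 4.58% of genes were lower. Cluster 1, the Nrg1-rich cluster, made up 19.4% of neuronal nuclei in mothers, 26.0% in virgin males and 34.8% in virgin females. With the clusters weighted alike in each library, the fold was 0.787 for mothers over virgin females and 0.785 for virgin males over virgin females, neither past 1.5-fold.

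**Figure D4:**
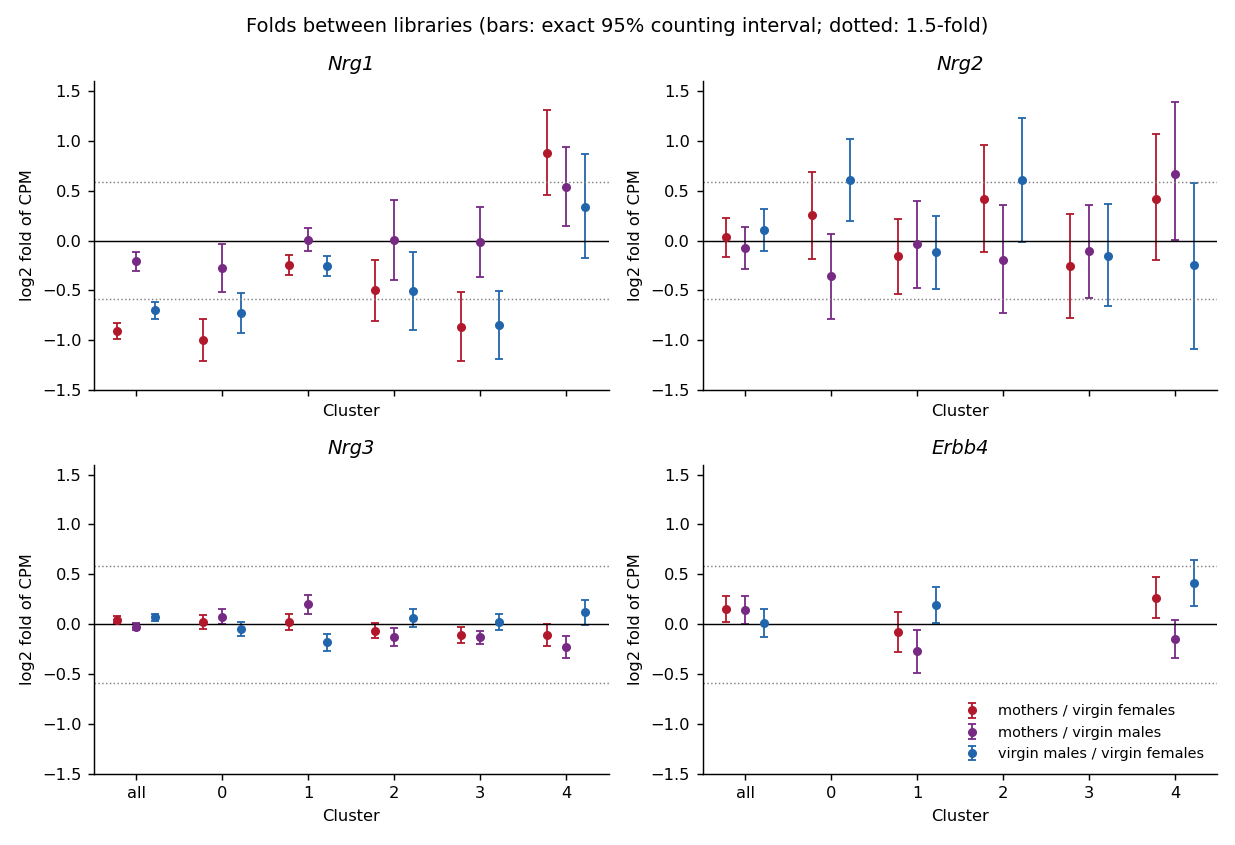
Fold of CPM (log2) between libraries for Nrg1, Nrg2, Nrg3 and Erbb4 over all neuronal nuclei and within each cluster, with exact 95% counting intervals and dotted lines at 1.5-fold; pairs under 50 UMIs are not drawn. Nrg1 lies below 0 for mothers over virgin females in clusters 0 to 3 and above 0 in cluster 4, while Nrg3 stays within the dotted lines throughout.

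Within clusters, the Nrg1 difference was uneven. Cluster 0 had 396 CPM [349.7, 447] in mothers, 479 CPM [426, 536] in virgin males and 791 CPM [733, 852] in virgin females, and the fold of mothers over virgin females was 0.501 [0.433, 0.578]. Virgin females stood above the other libraries here, and the share of thinned nuclei with Nrg1 followed the same order (61.4%, 71.4% and 79.6%). In cluster 3, the levels were 239 CPM in mothers, 241 in virgin males and 434 in virgin females, a fold of 0.550 [0.432, 0.699] for mothers over virgin females. For virgin males over virgin females, Nrg1 was past 1.5-fold in the same clusters, at 0.605 [0.527, 0.694] in cluster 0 (6.02% of genes lower) and 0.556 [0.438, 0.704] in cluster 3 (6.18% of genes lower). In nuclei thinned to 5000 UMIs neither was past 1.5-fold, at 0.683 in cluster 0 and 0.759 in cluster 3, and cluster 0 was at 0.672 as a mean over nuclei. The near equality of mothers and virgin males in cluster 3 (fold 0.990) also depended on the counting, since it was 0.599 in thinned nuclei. The folds of mothers over virgin females stayed past 1.5-fold under every alternative run, at 0.469 to 0.591 in cluster 0 and 0.455 to 0.581 in cluster 3. Cluster 1 differed less between mothers and virgin females, with a fold of 0.843 [0.786, 0.903], and cluster 2 had 0.707 [0.571, 0.875]. For virgin males over virgin females, cluster 2 had 0.706, which became 0.391 without the 5% of nuclei richest in UMIs. Cluster 4 went the other way, at 567 CPM [496, 645] in mothers, 391 CPM [305, 493] in virgin males and 309 CPM [235, 399] in virgin females, a fold of 1.83 [1.37, 2.49] for mothers over virgin females. In thinned nuclei this fold was 1.36, no longer past 1.5-fold. That cluster rests on 34 nuclei of mothers, 23 of virgin males and 18 of virgin females. The background of genes lower in mothers than in virgin females by 1.5-fold was 6.85% in cluster 0 and 5.24% in cluster 3, and that of genes higher was 9.12% in cluster 4.

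The other ligands gave smaller or thinly counted differences. Nrg2 was 157 CPM in mothers, 165 in virgin males and 153 in virgin females. It passed 1.5-fold for virgin males over virgin females in cluster 0 (168 CPM against 110 CPM, fold 1.52 [1.15, 2.03], background 5.53%) and in cluster 2 (159.8 CPM against 105 CPM, fold 1.53 [0.993, 2.34], background 6.85%). For mothers over virgin males it did so in cluster 4 (210.4 CPM against 132 CPM, fold 1.59 [1.00, 2.62], background 9.13%). In thinned nuclei none of these 3 Nrg2 folds was past 1.5-fold (1.14, 1.14 and 1.23). Nrg4 had 39 UMIs or 14.5 CPM in mothers, 18 UMIs or 8.48 CPM in virgin males and 31 UMIs or 11.4 CPM in virgin females. It was the only member past 1.5-fold for mothers over virgin males, at 1.71 with an interval from 0.955 to 3.17 that includes 1, where 4.25% of genes were higher, and at 1.35 in thinned nuclei. With clusters weighted alike, Nrg4 was also past 1.5-fold for mothers over virgin females, at 1.73, and in thinned nuclei that fold was 2.94. The Nrg4 fold of virgin males over virgin females was 0.744 with all UMIs but 2.17 in thinned nuclei, so the order of the virgin libraries was not stable.

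With all neuronal nuclei counted, Nrg3 and Erbb4 passed 1.5-fold in no contrast, over all clusters or in a cluster with at least 50 UMIs in the pair. Nrg3 was 4982 CPM in mothers, 5071 in virgin males and 4833 in virgin females, and the fold of mothers over virgin females was 1.03 [1.006, 1.06]. Erbb4 was 396 CPM in mothers, 358 in virgin males and 356 in virgin females, a fold of 1.11 [1.02, 1.21] for mothers over virgin females. In cluster 4, that fold was 1.20 [1.05, 1.39], and 0.914 without the 5% of nuclei richest in UMIs. Single nuclei held 153 of 710 Erbb4 UMIs of mothers, 73 of 354 of virgin males and 88 of 279 of virgin females there. For virgin males over virgin females in cluster 4, the fold was 1.33, but 1.52 without the richest nucleus of each library and 1.70 without nuclei with a GABAergic marker UMI, both past 1.5-fold. When those marker-positive nuclei were left out, the fold over all neuronal nuclei was 0.898 for mothers over virgin females and 0.846 for mothers over virgin males, against 1.11 and 1.10 with all nuclei.

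Only 11 nuclei were annotated as other than neurons, 1 in mothers, 1 in virgin males and 9 in virgin females, and they held a different set of members. Erbb4 had a UMI in 11 of the 11, with 82 UMIs or 1062 CPM [844, 1318] in all. It was 1512 CPM [864, 2456] in 3 astrocytes, 856 CPM [635, 1128] in 5 ependymal cells and 3113 CPM [1702, 5223] in 2 oligodendrocytes. Egfr gave 7 UMIs, all of them in the 3 astrocytes, or 662 CPM [266, 1363] there against 2.12 CPM in neurons. Nrg1 gave no UMI among 77240, which allows up to 38.8 CPM, against 995 CPM in neurons. Nrg3 gave 7 UMIs, 6 of them in the single polydendrocyte (an oligodendrocyte precursor), and Nrg2 gave 12 UMIs, 11 of them in ependymal cells. These values describe single nuclei from, in most classes, 1 library.

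The wider pathway was taken as 88 genes in 7 lists, of which 74 had at least 50 neuronal UMIs. Its genes were called higher and lower in clusters at shares near or below those of all genes. In cluster 1, 5 were higher (6.76% of those tested, against 7.52% of all genes) and 3 lower (4.05%, against 7.42%). In cluster 3, 1 was higher (1.35%, against 3.78%) and 5 lower (6.76%, against 10.4%). Cluster 0 had 2 higher and 2 lower (2.70% each, against 4.35% and 6.55%), and cluster 2 had 0 higher and 2 lower (against 1.64% and 6.37%). Cluster 4 had 3 higher (4.05%, against 4.76%) and 2 lower (2.70%, against 7.93%). By list, genes are named below where called in any cluster, and the share of all genes called in any cluster was not computed. None of the 7 other EGF family ligands reached 50 UMIs. Egf came closest with 48 UMIs, and Areg and Ereg had none.

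Of 10 tested proteases that release neuregulins or cut the receptor, only Adam19 was called, lower in cluster 1 (9.69 CPM, against 25.7 to 42.7 CPM in the other clusters). In that cluster 7.42% of all genes were called lower. Bace1, which cleaves Nrg1 and Nrg3, ranged from 36.0 to 43.9 CPM and was called nowhere. Among 20 adaptors and kinases of the Ras-MAPK arm, Shc1, Shc3, Shc4 and Gab1 were called. Of the 20, 2 were lower in each of clusters 0 and 4 (6.55% and 7.93% of all genes). In clusters 1, 2 and 3, 1 was lower in each (7.42%, 6.37% and 10.4% of all genes). In clusters 1, 3 and 4, 1 was higher in each (7.52%, 3.78% and 4.76% of all genes). Shc3, a neuronal adaptor of receptor tyrosine kinases, was lower in clusters 1 (78.1 CPM) and 4 (94.0 CPM) and higher in cluster 3 (545 CPM). Its lowest levels were thus in the clusters with the highest Erbb4. Gab1, a docking protein downstream of ErbB receptors, had 41.6 CPM in cluster 1 and at most 6.01 CPM elsewhere; it has 94 UMIs in all and was chosen after its values were seen.

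In the PI3K-Akt arm, 1 of 13 genes was called higher in each of clusters 0, 1 and 4 (4.35%, 7.52% and 4.76% of all genes). In cluster 3, 1 was called lower (10.4% of all genes). Pik3cb, a catalytic subunit, was higher in cluster 0 (102 CPM, against 34.8 to 49.6 CPM elsewhere) and Pik3r3, a regulatory subunit, in cluster 4 (92.7 CPM, against 40.7 to 73.6 CPM). Of the 11 other effectors tested, only Plcg1, a phospholipase bound by activated receptors, was called, higher in cluster 1 (42.2 CPM), where 7.52% of all genes were. Among 9 tested inhibitors and turnover factors, Wwp1, Cblb and Lrig1 were called. Of the 9, 1 was higher in each of clusters 0, 1 and 4 (4.35%, 7.52% and 4.76% of all genes). In cluster 2, 1 was lower (6.37% of all genes), and in cluster 3, 2 were lower (10.4% of all genes). Wwp1, a ubiquitin ligase known to act on Erbb4, was higher in cluster 1 (289 CPM) and lower in clusters 2 (79.2 CPM) and 3 (90.8 CPM). Cblb, another ubiquitin ligase, was higher in cluster 0 (92.4 CPM).

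Of 11 PDZ scaffold genes, Dlg2, a synaptic relative of PSD-95, was higher in cluster 1 (3159.5 CPM, against 1364 to 1958 CPM elsewhere). Dlg1 was lower there (93.5 CPM) and Erbin, a binding partner of Erbb2, lower in cluster 3 (37.3 CPM). Of all genes, 7.52% were called higher and 7.42% lower in cluster 1, and 10.4% lower in cluster 3. Dlg4, which encodes PSD-95 and binds Erbb4, was called in no cluster. The list's median log2 ratio in cluster 1 was -0.16, against 0.12 for all genes.

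Between libraries, few pathway genes passed 1.5-fold. For mothers over virgin females, 1 of 71 was higher (Ncstn, 26.7 CPM against 17.3 CPM, background 3.83%) and 1 lower (Mapk3, 7.80 CPM against 14.0 CPM, background 3.66%). For mothers over virgin males there was none of 69, where 4.25% of genes were higher and 3.01% lower. For virgin males over virgin females, 70 were tested. Adam17 (36.7 CPM against 23.5 CPM) and Errfi1 (18.4 CPM against 11.8 CPM) were higher, where 2.98% of genes were. Map2k2 (33.4 CPM against 51.1 CPM) was lower, where 4.58% of genes were. Ncstn is a subunit of the protease that cleaves Erbb4 within the membrane, Adam17 sheds neuregulins, and Errfi1 inhibits Egfr and its relatives. Ncstn, Mapk3 and Errfi1 have under 200 UMIs and were named after their values were seen.

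The genes with the pattern most like a member's were found by Pearson's r of log2(CPM + 10) over the 15 sums of cluster and library, among 6248 genes with at least 200 UMIs. These sums share libraries, depth and clusters, so r is a description. For Erbb4 they were Frmpd3 (r = 0.976), Msi2 (0.975) and Sorcs3 (0.973). Msi2, an RNA-binding protein, had 1275 CPM in cluster 4 and 1098 CPM in cluster 1, against 198 to 260.2 CPM elsewhere. For Nrg1 they were Man1a (0.936), Plcxd2 (0.935) and Myo16 (0.921), and Man1a, an enzyme of glycan trimming, had 335 CPM in cluster 1 and at most 19.3 CPM elsewhere. For Nrg3 they were C030017B01Rik (0.923), Csmd1 (0.917) and Edil3 (0.913), and those for Nrg2 included 2700097O09Rik (0.853) and Col11a1 (0.841).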

How the data were processed

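The authors deposited raw UMI counts per gene and nucleus, from a 10x Chromium single-nucleus assay, and metadata with library, cell class, subtype labels, cluster and the percent of mitochondrial UMIs. Cell Ranger 5.0.1 and the build GRCm38 are named per the submitters' processing notes. The sources used here do not give intron counting, nucleus filters or doublet treatment. Doublets were not searched for; an alternative dropped, per library, the 5% of nuclei richest in UMIs. The tables were joined by each nucleus's total UMIs and genes with a UMI, unique for all 603 nuclei; of 2 deposited columns named for the percent of mitochondrial UMIs, 1 was then recomputed with a largest difference of 0, and the other, which differed by up to 2.33 percentage points, was not used.

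UMIs were summed per library and cluster and scaled to CPM. Folds carry exact conditional binomial 95% intervals. Library folds needed at least 50 UMIs in the pair to be counted past 1.5-fold. Where no UMI was seen, 3 UMIs served as the limit. Scripts were tested on simulated data (Python 3.11.15, numpy 2.4.6, pandas 2.3.3, scipy 1.17.1). Coordinates come from the GENCODE annotation of GRCm38. The members and gene lists were chosen with earlier results of these data known. Named pathway genes were at most 4 per list, called in a cluster or past the fold between libraries, with the largest ratio of highest to lowest cluster among genes with at least 200 UMIs, and exceptions are stated. One GABAergic marker and 1 gene of like pattern are not reported here, and marker sums and splits were computed without that marker.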

Additional observations from a re-analysis of the deposited data

Results flagged for a closer look

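Folds between libraries that lay on opposite sides of 1 in different clusters, each with an interval that leaves out 1, were noted for Nrg1 and Nrg3; the difference between clusters was not tested. For mothers over virgin females, Nrg1 had folds of 0.501, 0.843, 0.707 and 0.550 in clusters 0 to 3 and 1.83 in cluster 4 (1.36 in nuclei thinned to 5000 UMIs). For mothers over virgin males, Nrg1 had 0.827 in cluster 0 and 1.45 in cluster 4 (1.05 in thinned nuclei). For mothers over virgin males, Nrg3 had 1.15 in cluster 1, against 0.916 in cluster 2, 0.913 in cluster 3 and 0.854 in cluster 4, all within 1.5-fold.

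The 11 nuclei not annotated as neurons, which enter no comparison between groups, held more than a count of 0 allows for 4 members. Their levels were 1062 CPM for Erbb4, 155 CPM for Nrg2, and 90.6 CPM each for Nrg3 and Egfr.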

How the results depend on the processing

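The counts of members past 1.5-fold between libraries were 1 each and depended on the settings. With no minimum of UMIs they were 3 for mothers against virgin females, 2 for mothers against virgin males and 3 for virgin males against virgin females; with a 2-fold threshold each was 0. With clusters weighted alike, the count for virgin males against virgin females was 0, and the 1 member for mothers against virgin females was Nrg4 in place of Nrg1. In nuclei thinned to 5000 UMIs, the counts were 2 for mothers against virgin females (Nrg1 and Nrg4) and 0 for mothers against virgin males, which was also 0 with a mean over nuclei. Among cluster ratios on the log2 scale, Nrg4 in cluster 1 over cluster 3 was 3.48, and 3.05 without the 5% of nuclei with most UMIs or 2.91 as a mean over nuclei. Nrg3 in cluster 3 over cluster 1 was 0.64, and 0.83 with size factors. The share of cluster 1 nuclei with Nrg1 was 90.8% at 3000 UMIs, against 96.1% at 5000 UMIs. The causes were not tested. All 330 alternative values of the 30 log2 ratios past 1.5-fold kept their sign; of 639 for the 66 ratios not past it, 44 changed sign, Erbb4 folds between libraries among them.

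Leaving out 1 library at a time gave 12 to 14 member calls over the clusters (12 with all), 4 to 5 members with the same highest cluster, and log2 ratios of highest to lowest cluster of 3.23 to 3.45 for Nrg1, 0.46 to 0.77 for Nrg2, 0.56 to 0.71 for Nrg3, 3.22 to 3.70 for Nrg4 and 7.49 to 7.71 for Erbb4. Without nuclei with a GABAergic marker UMI, an alternative chosen after seeing the data, the calls were 12, the members with the same highest cluster 4, and the log2 ratio of cluster 4 to cluster 2 for Erbb4 was 7.17.

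No paired analysis was possible because each group has 1 library. Nrg4, Egfr and Erbb3 have too few UMIs, and Erbb2 none, to separate libraries, and folds against virgin females rest on 17 nuclei in cluster 3 and 18 in cluster 4.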

Other observations

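Some pathway genes with under 50 neuronal UMIs, too few for the counts above, were uneven over the clusters; they were chosen after their values were seen and have no test. Bace2, a protease related to Bace1, had 23.5 CPM in cluster 2 and 1.29 to 3.39 CPM in the other clusters, from 48 UMIs in all. Dusp6, a phosphatase that acts on ERK kinases, had 0.570 CPM in cluster 1 and 6.604 to 10.8 CPM elsewhere, from 48 UMIs. Spry4, a feedback inhibitor of receptor tyrosine kinases, had 17.1 CPM in cluster 1 and 1.85 to 5.87 CPM elsewhere, from 47 UMIs. Hbegf, a ligand of Egfr and Erbb4, had 12.2 CPM in cluster 3 and 0.462 CPM in cluster 0, from 35 UMIs.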
